A study of Mus musculus with 4 samples.

Results

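Long-term haematopoietic stem cells (LT-HSC) were set against multipotent progenitors (MPP), both from mice labelled as a conditional knockout of the kinase p38 alpha, 16 h after both had been placed in irradiated hosts. The comparison rests on 2 of the 4 arrays of the series, chosen by their labels: 1 array labelled cKO LT-HSC and 1 labelled cKO MPP. The other 2 arrays hold the same populations from wild type (WT) mice. All donors were male C57BL/6J mice 10 weeks old and of the Ly5.2 type, either WT or carrying the conditional knockout (cKO) of p38. Bone marrow cells of the LSK fraction (negative for lineage markers and positive for Sca-1 and Kit) were sorted as LT-HSC (CD34- Flt3-) or MPP (CD34+ Flt3+), stained with the dye CFSE and injected into Ly5.1 congenic mice that had received 9.5 Gy. Cells that carried the dye were sorted from the hosts' marrow for RNA, so every group shared the staining, the injection and the irradiated host. The Cre line, the deleted exons and the number of pooled mice per array are not given in the sources used here. RNA was hybridised to 1-colour Agilent arrays.

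LT-HSC sit at the top of the blood cell hierarchy and rarely divide in undisturbed marrow, whereas MPP divide often and have little capacity to renew themselves. Transplantation into an irradiated host drives stem cells towards division. The kinase p38 alpha, encoded by Mapk14, is activated by stress and cytokines, and the title of the study links it to purine metabolism in stem cells that begin to cycle. Purines are made step by step on a ribose phosphate as inosine monophosphate (IMP), which is turned into AMP or GMP, or are salvaged from free bases.

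With 1 array per group no difference has a replicate check and no p-value was calculated. A gene is called higher or lower by its size on the cKO LT-HSC array against the cKO MPP array, and an error given as ± is the one the scanner software assigns to the log2 difference, which leaves out cells, sorts and RNA amplification. Signals are in scanner units after scaling both arrays to a common 75th percentile, and each gene is given by its brightest probe. The share of spots called well above background ran from 62.5% to 70.5% over the arrays, and the lowest signal in that class was 12.1 on the cKO LT-HSC array and 13.1 on the cKO MPP array. A gene well above background on 1 of the arrays has only a bound, written as at least N-fold. In bulk RNA, fewer cells of a type and less RNA per cell cannot be told apart.

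Of 27075 genes measured on at least 1 cKO array, 23403 were measured on both, 2845 on the LT-HSC array only and 827 on the MPP array only. At 2-fold or more, 2258 genes were higher (8.39% of those with a value or a bound) and 1749 were lower (6.50%) on the LT-HSC array, so 56.4% of the 2-fold genes were higher. That share depended on the scaling: it was 46.3% when arrays were scaled to their medians and 69.7% with normexp background correction and quantile normalization. On genes measured on both arrays the median difference was -0.08, the interquartile range was 0.76 and the median scanner error was 0.21. When genes were split into 4 classes by brightness, the brightest had a median of -0.27 and the dimmest of -0.01. The group counts below use 1.5-fold, which 14.0% of all genes measured on both arrays exceeded upwards and 18.9% downwards, and a gene within 1.5-fold is called level.

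The proteins used in the sort were checked first at the RNA level. Cd34, a sialomucin of progenitors, had a signal of 3440 on the LT-HSC array and 6924 on the MPP array, a difference of -1.01 ± 0.20, and its other probe gave -1.38. It was thus lower in the population sorted as CD34-, by less than in WT (-2.99). Flt3, a cytokine receptor of progenitors, was lower at its brightest probe (180.8 against 399.5, or -1.14), but its other probes gave 0.64 and 0.71 and the mean of its probes gave 0.07. Ly6a, which encodes Sca-1, was higher on the LT-HSC array (4096 against 940.6, or 2.12), and Kit, the stem cell factor receptor, was level (2640 against 2907). Mapk14 had 871.4 and 1119, a difference of -0.36 ± 0.20, with -0.47 at its other probe. On the WT arrays the brighter probe had 1291 in LT-HSC and 1020 in MPP, so its signal on the cKO MPP array was not below that on the WT MPP array. The probes lie at chr17:28873965-28874024 and chr17:28885290-28885349 of mouse build mm9, and since the deleted exons are not given they do not check the genotype, and cKO means the array labelled so.

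Genes known from LT-HSC did not stand apart on either array. Of 30 measured on both, 3 were higher and 3 lower by 1.5-fold, with a median of -0.07. Prdm16, a regulator of stem cell maintenance, was higher (143.2 against 50.16, or 1.51 ± 0.23), as were the guidance receptor Robo4 (1.12) and the leukaemia fusion partner Mllt3 (1.09). Mecom, a zinc finger factor that stem cells need, was lower (25.22 against 84.38, or -1.74 ± 0.26), while it stood at 0.12 in WT. Procr (0.27), Hlf (0.12), Fgd5 (-0.13) and Meis1 (-0.13) were level, and Clec1a was at least 3.97-fold higher by its bound. By this list the LT-HSC array did not lie above the MPP array. Genes of MPP and lymphoid priming also went both ways, with 7 of 20 higher and 6 lower (median -0.08). The chromatin organiser Satb1 was lower (79.59 against 418.5, or -2.39), whereas the gut-homing receptor Ccr9 (953.6 against 108.0, or 3.14) and lymphotoxin beta, Ltb (2.96), were higher.

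Mitotic genes had lower signals in LT-HSC than in MPP. Of 39 measured, 31 were lower by 1.5-fold and 0 higher, with a median of -1.15. Ttk, a kinase of the spindle checkpoint, had 39.27 on the LT-HSC array and 220.0 on the MPP array (-2.49 ± 0.24). Ccnb1, the cyclin that starts mitosis, had 166.6 and 795.7 (-2.26 ± 0.21), with -1.66 and -0.89 at its other probes. Cdk1, the kinase it activates, had 156.1 and 506.1 (-1.70), with -2.03 at a probe that overlaps the first and -0.69 at another. The microtubule-depolymerising kinesin Kif2c stood at -1.76 and -2.80. All probes of these 4 genes thus pointed down. Mki67, the proliferation marker Ki-67, was within 1.5-fold (3494 against 4913, or -0.49), as were Hmmr (0.12) and Pttg1 (0.55), the members above 0.

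The promoters of mitotic genes are known for a cell cycle homology region and for CCAAT boxes. Windows of 300 bases from RefSeq (GRCm38.p6, 250 before to 50 after each start) were found for 31 of the 40 listed genes and searched on both strands. TTTGAA or TTCGAA, simple forms of the homology region, occurred in 24 of the 31 genes (77.4%). Counted by window it was 26 of their 33 windows (78.8%), against 19.2% of all 32851 windows. CCAAT occurred in 23 genes (74.2%) and in 25 of the 33 windows (75.8%), against 37.4% of all windows. Ttk and Kif2c are shown because, among the mitotic genes named above, they had the lowest differences of those whose window held such a match. Ccnb1, which was lower than Kif2c, had no window with a match, so the display was chosen for the motif. The windows are chr9:83834439-83834738 on the plus strand and chr4:117178723-117179022 on the minus strand, 5′ to 3′ along the gene, with matches on either strand in capitals. A match describes the letters only.
Ttk: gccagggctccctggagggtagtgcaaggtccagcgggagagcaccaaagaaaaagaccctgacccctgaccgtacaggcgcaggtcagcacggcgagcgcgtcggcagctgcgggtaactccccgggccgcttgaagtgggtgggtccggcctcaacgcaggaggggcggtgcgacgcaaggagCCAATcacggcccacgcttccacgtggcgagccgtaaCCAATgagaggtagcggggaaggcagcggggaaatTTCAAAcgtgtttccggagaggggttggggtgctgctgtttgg
Kif2c: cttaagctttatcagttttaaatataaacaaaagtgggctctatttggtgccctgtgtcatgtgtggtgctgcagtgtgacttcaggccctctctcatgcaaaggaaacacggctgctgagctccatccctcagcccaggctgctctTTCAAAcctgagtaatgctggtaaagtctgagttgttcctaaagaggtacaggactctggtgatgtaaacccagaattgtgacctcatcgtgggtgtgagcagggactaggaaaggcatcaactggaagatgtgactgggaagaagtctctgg

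Of 42 genes of DNA replication, 21 were lower and 0 higher (median -0.60). Pole2, a subunit of DNA polymerase epsilon, had 136.4 against 483.8 (-1.83 ± 0.21), and the origin recognition subunit Orc1 had 64.59 against 200.9 (-1.64). Mcm10, which helps load the polymerase, was at -1.59 and the primase partner Pola2 at -1.55. Mcm10 stood at 0.18 in WT. Of the D cyclins and their kinases, Cdk4 (4086 against 9350, or -1.19), Ccnd2 (-0.95) and Cdk6 (-0.91) were lower, and Ccnd1 was higher (0.63).

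Of 20 CDK inhibitor and quiescence genes, which restrain the cell cycle, 10 were higher, 9 level and 1 lower (median 0.57, or 0.37 with normexp and quantile normalization). Foxo1, a factor of quiescence and stress resistance, had 962.2 on the LT-HSC array and 221.5 on the MPP array (2.12 ± 0.21), with 3.21 at its other probe. The antiproliferative gene Btg1 had 2397 and 578.7 (2.05) and the factor Klf4 had 777.8 and 271.2 (1.52). Cdkn1b, which encodes the inhibitor p27, had 944.3 and 441.8 (1.10), while Cdkn1a, which encodes p21, was level (-0.19). The plot of signals by gene shows these beside the mitotic genes.

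**Figure D1:**
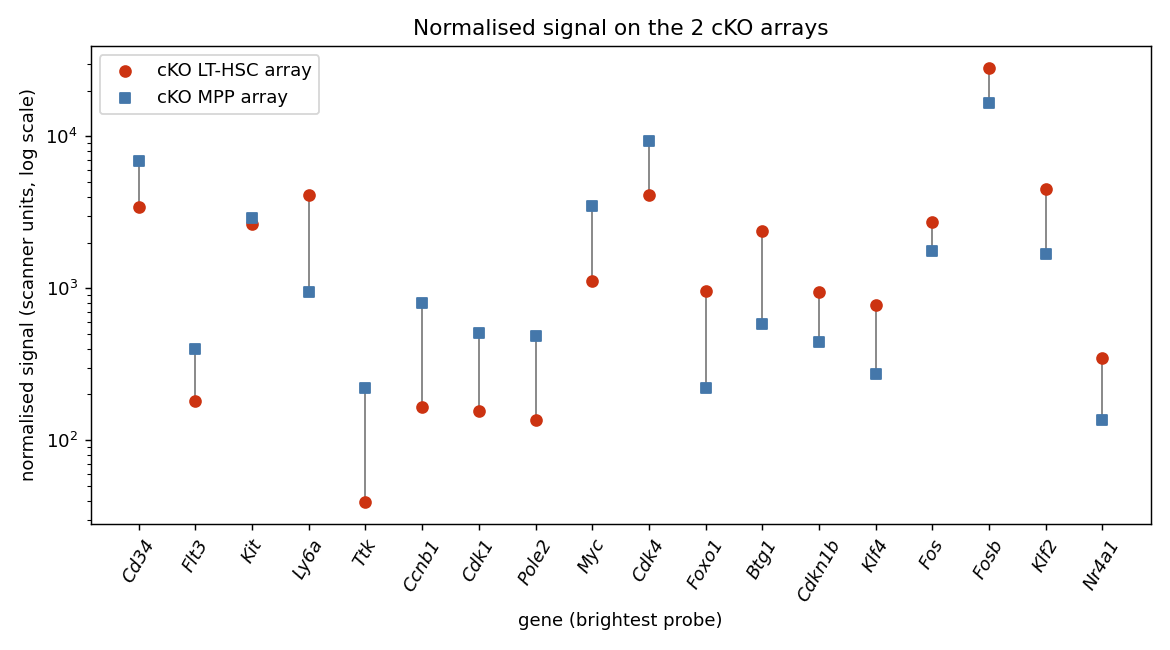
Normalised signal (scanner units, log scale) of 18 genes on the cKO LT-HSC array (circles) and the cKO MPP array (squares), 1 array each. The mitotic genes Ttk, Ccnb1 and Cdk1 lie lower on the LT-HSC array, and Foxo1, Btg1 and Klf2 lie higher.

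Immediate early genes, the first to be transcribed after a stimulus, were higher on the LT-HSC array in 14 of 23 cases and lower in 0 (median 0.70). Klf2, a factor that keeps lymphoid and stem cells quiet, had 4493 against 1691 (1.41 ± 0.20), and the nuclear receptor Nr4a1 had 346.1 against 134.8 (1.36). The AP-1 members Junb (1.17), Fosb (28380 against 16590, or 0.77) and Fos (0.64) were higher, and Egr1 was level (0.14). Nr4a3 was at least 4.85-fold higher by its bound. The components and targets of the p38 pathway split, with 7 of 26 higher and 2 lower (median 0.03). The phosphatase Dusp10, which turns off p38 and JNK, had 545.4 against 183.1 (1.57), and the stress gene Gadd45g was at 1.25. Of the other p38 kinases, Mapk11 (p38 beta) was at 1.05 and Mapk13 (p38 delta) at 0.95, and Mapk12 (p38 gamma) was at least 4.13-fold lower.

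Most enzymes of purine synthesis were lower on the LT-HSC array. All 8 enzymes of the de novo path to IMP lay below 0, 6 of them by 1.5-fold (median -0.83). Ppat, which commits ribose phosphate to purines, had 454.5 against 867.3 (-0.93 ± 0.20; other probe -0.84), and Prps1, which makes the activated ribose phosphate, had 433.8 against 818.8 (-0.92). Pfas had 731.1 against 1455 (-0.99) and Gart 700.0 against 1263 (-0.85; other probe -0.87). These enzymes differed by similar amounts. Atic, which closes the ring, had -0.80 at its brightest probe and 0.00 at the other. Prps2 (-0.44) and Paics (-0.50) were within 1.5-fold.

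From IMP onwards, 6 of 10 enzymes were lower and 0 higher (median -0.71). Impdh2, the rate-limiting enzyme of GMP synthesis, had 2194 on the LT-HSC array and 3882 on the MPP array (-0.82 ± 0.20). Its other probe gave -0.91 but overlaps the first on the genome, so it is no separate check. Guanylate kinase, Guk1, was at -1.59 and the nucleoside diphosphate kinase Nme1 at -1.10. Gmps, the last enzyme to GMP, had -0.76 at its brightest probe but -0.52 and 0.72 at the others. Salvage and breakdown went both ways. The salvage enzymes Aprt (1441 against 3910, or -1.44) and Hprt (-0.68) and the adenosine deaminase Ada (-1.08) were lower, and xanthine dehydrogenase, Xdh (172.6 against 55.66, or 1.63), and the guanine deaminase Gda (0.93; other probe 1.22) were higher. Of the MiT family of transcription factors, Tfec was lower (127.5 against 360.3), Tfeb had 0.53 at its brightest probe and 1.67 at the other, Tfe3 was level (0.25; other probe -0.24), and Mitf had 0.43 at one probe and -1.05 at another. The list median of 0.34 became -0.15 when the probes of a gene were averaged.

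**Figure D2:**
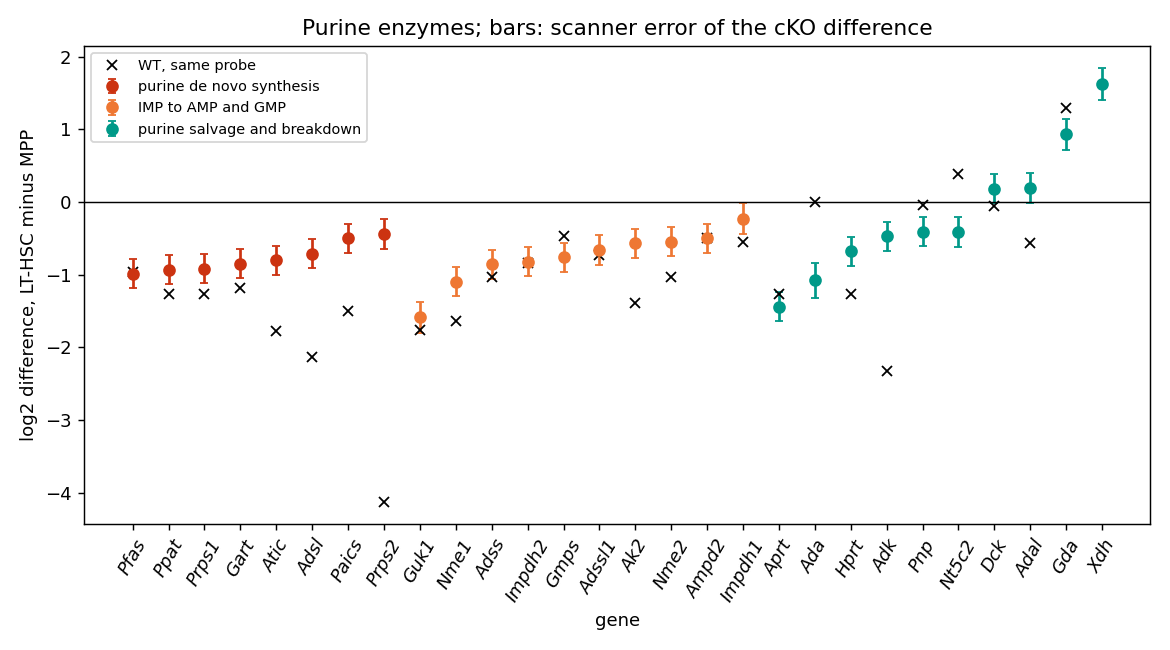
Log2 difference of LT-HSC minus MPP for the purine enzymes measured on both cKO arrays (circles, bars give the scanner error), with the WT difference at the same probe as crosses where it was measured on both WT arrays. All de novo enzymes lie below 0 in cKO, and Prps2 is at -0.44 in cKO and -4.13 in WT.

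Other growth and energy genes had medians below 0, as did housekeeping genes. Of 15 housekeeping genes, 7 were lower and 0 higher (median -0.56), among them Gapdh (25030 against 50530, or -1.01) and Tubb5 (-0.89). Ribosome biogenesis and Myc targets had 18 of 28 lower (median -0.73), the TCA cycle 12 of 22 (-0.70), the respiratory chain 15 of 26 (-0.64), antioxidant genes 12 of 23 (-0.61) and glycolysis 11 of 23 (-0.52), with 0 higher in each. Serine and one-carbon metabolism had 7 of 20 lower and 2 higher (-0.54), and heat shock genes 9 of 20 lower and 2 higher (-0.53). No test separates these medians from those of the housekeeping and purine lists. Myc, the growth regulator, had 1120 against 3495 (-1.64 ± 0.20). The hexokinase Hk2 was at -1.43, the serine synthesis enzyme Phgdh at -1.06 (other probe -1.23) and the succinate dehydrogenase subunit Sdhc at -1.18. With normexp and quantile normalization the medians came closer to 0, at -0.25 for housekeeping genes, -0.27 for glycolysis, -0.29 for one-carbon metabolism, -0.38 for antioxidant genes, -0.42 for the respiratory chain and -0.18 for heat shock genes. Pyrimidine and deoxynucleotide synthesis had a median of -0.36 (-0.07 with those settings) and split. The ribonucleotide reductase subunit Rrm2 was lower (1138 against 2354, or -1.05), and the dNTP hydrolase Samhd1 (639.8 against 249.6, or 1.36) and the nucleotide kinase Cmpk2 (1.17) were higher.

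**Figure D3:**
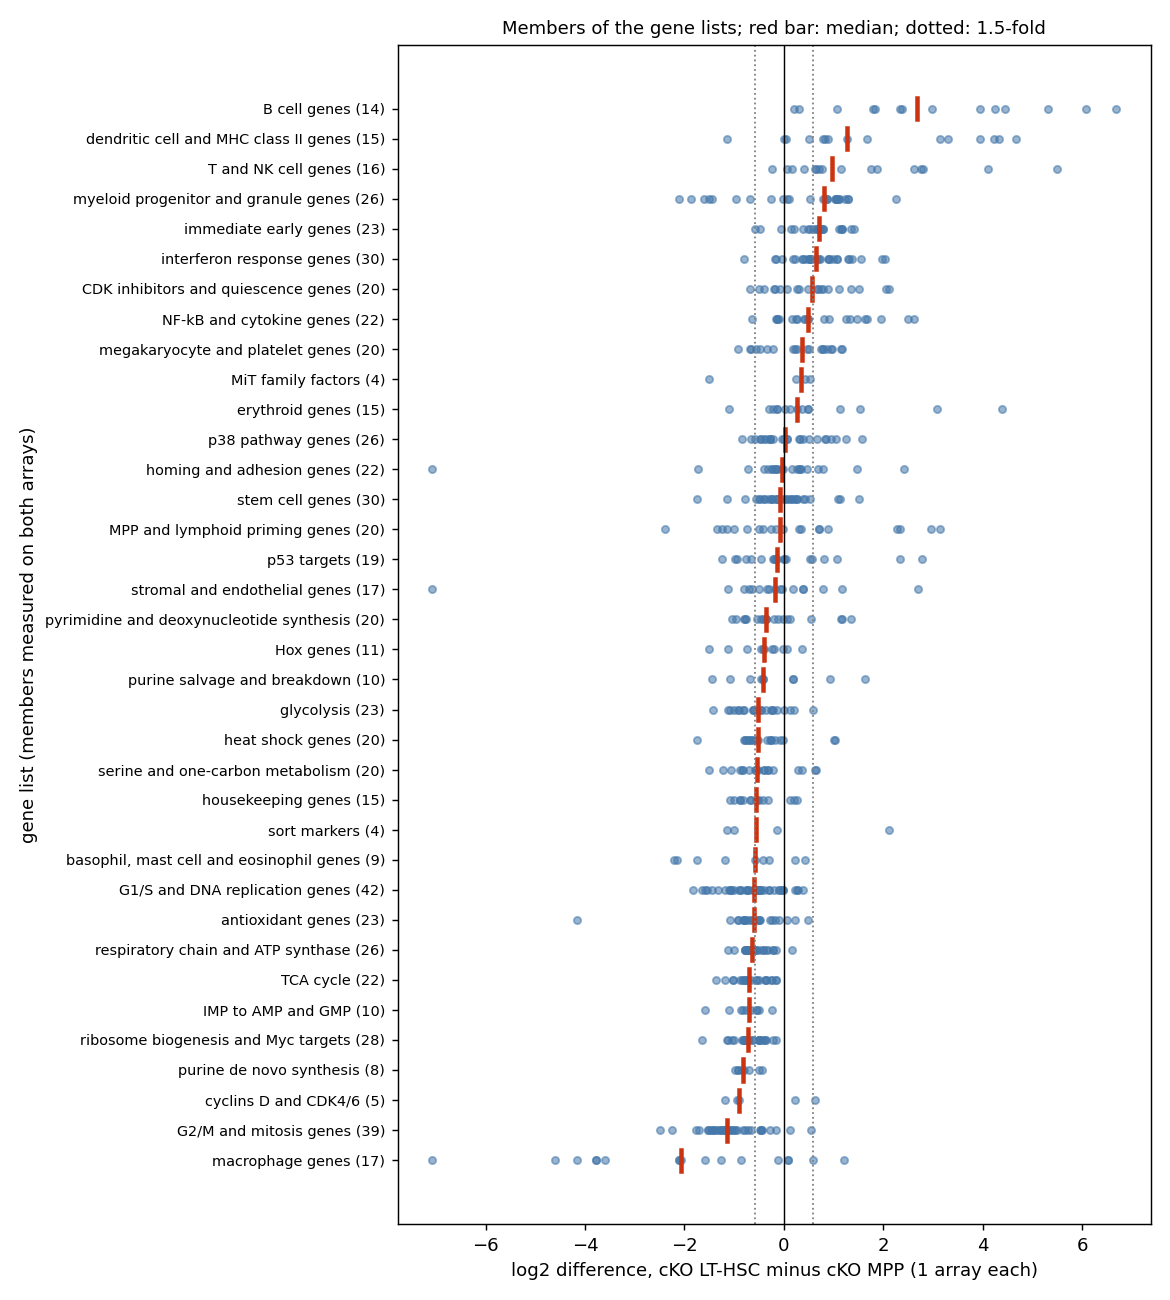
Log2 difference of cKO LT-HSC minus cKO MPP for the members of 36 gene lists measured on both arrays (points), with list medians (red bars) and 1.5-fold (dotted lines). B cell genes lie highest by median (2.68) and macrophage genes lowest (-2.08).

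Genes of mature blood cells were among the largest differences. Of 14 B cell genes measured on both arrays, 12 were higher on the LT-HSC array and 0 lower (median 2.68), and 5 more were measured on that array only. Jchain, which links antibody chains, had 5225 against 50.53 (6.69 ± 0.22), and the B cell factors Spib and Pou2af1 had 2016 against 29.72 (6.08) and 3309 against 82.77 (5.32). The receptor chain Cd79a was at 4.45 with 5.09 at its other probe, which the files place on another chromosome (7 against 12 for the first). Ms4a1, which encodes the B cell surface protein CD20, was at least 13.2-fold higher and not well above background on the MPP array. The summed signal of the list was 33027 on the LT-HSC array and 6304 on the MPP array.

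T and NK cell genes were higher in 12 of 16 cases and lower in 0 (median 0.96), with 9 more measured on the LT-HSC array only. The median was 1.62 with those 9 at their bounds, 1.76 with a gene's probes averaged and 2.17 with dim probes kept. Il2rb, a receptor chain for interleukins, had 1773 against 39.56 (5.49), and the T cell receptor partner Cd3d had 415.4 against 24.03 (4.11). The adhesion molecule Cd2 was at least 89.1-fold higher. Their summed signal was 15596 against 9072. MHC class II genes were higher as well: H2-Aa had 6932 against 270.9 (4.68 ± 0.20), and the invariant chain Cd74 had 11320 against 733.4 (3.95). The dendritic cell and MHC class II list had 11 of 15 higher and 1 lower (median 1.28). The first sort of the donor cells took the lineage-negative LSK fraction and the second was by CFSE, per the labels.

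Macrophage genes went the other way. Of 17 measured on both arrays, 12 were lower on the LT-HSC array and 2 higher (median -2.08, or -1.31 with normexp and quantile normalization), and 4 were measured on the MPP array only. Vcam1, an adhesion molecule of marrow macrophages and stroma, had 15.28 on the LT-HSC array and 2073 on the MPP array (-7.08 ± 0.31). This was the largest difference of any named gene measured on both arrays. The value of 15.28 lies close to the lowest signal well above background on the LT-HSC array, 12.1. The other Vcam1 probe had 14.59 against 797.3 and was well above background on the MPP array only. The scavenger receptor Marco had 55.39 and 1349 (-4.61), and the haem-degrading enzyme Hmox1 had 463.5 and 8333 (-4.17; other probe -4.02). The iron exporter Slc40a1 (-3.79), the macrophage protein Cd5l (-3.78) and the complement gene C1qc (-3.59) followed, and the haemoglobin receptor Cd163 was at least 12.8-fold lower. The general macrophage genes Adgre1 (198.3 against 214.6, or -0.11) and Csf1r (0.09) were level. The summed signal of the list was 8405 against 30949. Their part in other genes that macrophages express, such as Ctsd below, was not tested.

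**Figure D4:**
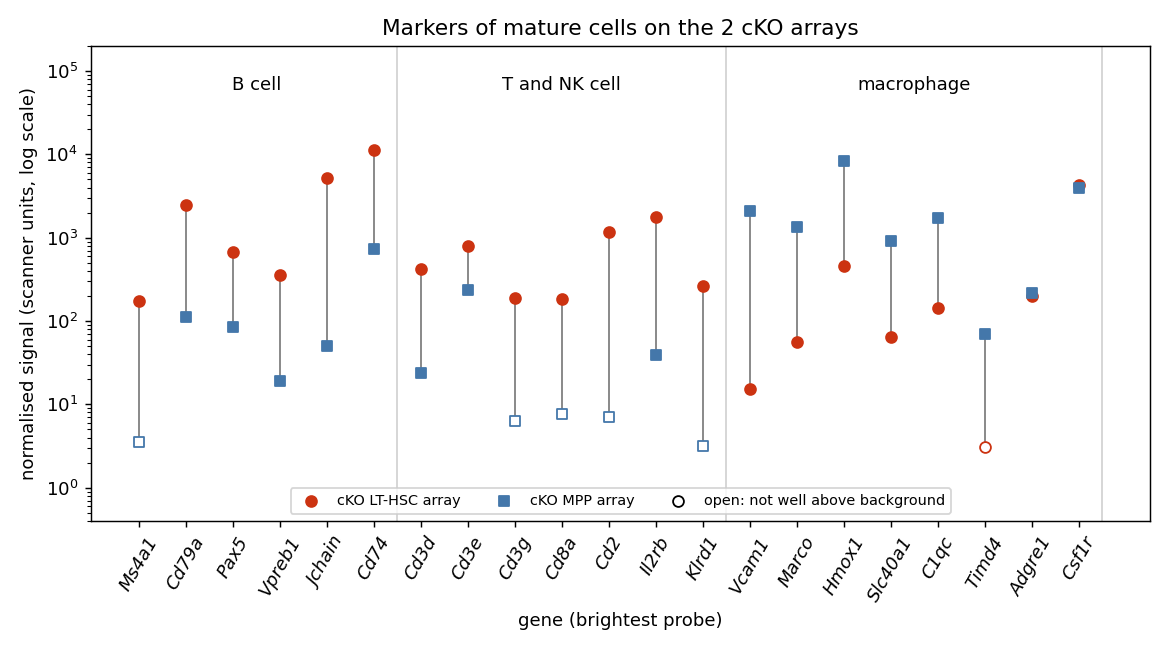
Normalised signal (scanner units, log scale) of B cell, T and NK cell and macrophage genes on the cKO LT-HSC array (circles) and the cKO MPP array (squares); open symbols were not well above background. Lymphoid genes such as Jchain (5225 against 50.53) lie higher on the LT-HSC array and Vcam1 (15.28 against 2073) higher on the MPP array, while Csf1r is level.

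Some of the genes that respond to interferon and to NF-kB were higher on the LT-HSC array, the one on which the lymphoid genes were also higher. Of 30 interferon response genes 16 were higher and 1 lower (median 0.65). Mx1, an antiviral GTPase, had 253.4 against 61.66 (2.04 ± 0.22), and the transcription factor Stat2 (932.3 against 236.9, or 1.98), which carries the interferon signal, was higher. Of the 22 measured targets of NF-kB and cytokine signals, 10 were higher and 1 lower (median 0.48), led by the chemokine Ccl5 (1248 against 203.5, or 2.62), which is also made by T cells, and the adaptor Traf1 (2.49). The part of lymphoid cells in these differences, and in those of Foxo1, Btg1, Klf2 and other genes that lymphocytes express, was not tested. The motif GAAA followed after any 2 bases by a second GAAA is a core of the interferon-stimulated response element. It occurred on either strand in 13 of the 25 interferon genes with a RefSeq window (52.0%). Counted by window it occurred in 13 of their 31 windows (41.9%), against 3.44% of all windows. Stat2, the member with the second highest difference, is shown because its window held the motif, whereas Mx1 had no window with a match. The match is in capitals (chr10:128270248-128270547, plus strand, GRCm38.p6).
Stat2: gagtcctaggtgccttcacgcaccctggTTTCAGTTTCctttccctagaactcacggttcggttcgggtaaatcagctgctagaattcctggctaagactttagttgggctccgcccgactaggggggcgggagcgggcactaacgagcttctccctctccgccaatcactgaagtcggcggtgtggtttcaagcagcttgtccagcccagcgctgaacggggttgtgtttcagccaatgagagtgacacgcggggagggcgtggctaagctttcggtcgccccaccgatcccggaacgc

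Myeloid progenitor and granule genes went both ways, with 14 of 26 higher and 7 lower (median 0.80). The primary granule genes Mpo (4352 against 12430, or -1.51 ± 0.20; other probe -1.80), Ctsg (-1.86) and Prtn3 (-1.61) and the factor Cebpa (508.8 against 2199, or -2.11), which progenitors use to enter the myeloid path, were lower on the LT-HSC array. Other members were higher, such as the neutrophil genes Camp (2021 against 860.3, or 1.23), Ltf (1.02), Mmp8 (1.29) and S100a8 (8997 against 4337, or 1.05). Ly6c1, a surface protein of myeloid and other cells, was at 2.25 with 2.88 at its other probe.

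Other probes of the same gene gave a check within the arrays. Over all genes measured on both arrays, 6.89% were 2-fold higher and 6.19% 2-fold lower. Of 3894 genes with at least 2 probes at separate sites, 488 reached 2-fold at the brightest probe, and a further probe shared the direction in 73.6% of them and reached 1.5-fold the same way in 45.7%. A shared direction was found in 81.1% of the 259 lower genes and 65.1% of the 229 higher genes. Every probe measured on both cKO arrays reached 2-fold in the same direction for 59 genes that were higher and 62 that were lower. Probes well above background on fewer arrays were not counted. The higher ones were led, by their least changed probe, by the immunoglobulin segment Igh-VJ558 (5.97), one of a family of near-identical copies that a probe may not tell apart, Cd79a (4.45), the lymphoid GTPase Gimap4 (3.43) and the carbonic anhydrase Car1 (3.24). The lower ones were led by Hmox1 (-4.02), the oxygen sensor Egln3 (134.1 against 608.3; -2.18), Kif2c (-1.76), Pter (-1.62), Ttyh2 (-1.59) and the lysosomal protease Ctsd (-1.58).

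The same comparison in WT shares no array with this one. Over 21467 genes measured on all 4 arrays the differences had a Pearson r of 0.57 and a Spearman rho of 0.49 across genes, and genes are no independent replicates and share their probes' errors. Of all these genes 69.6% had the same sign in both genotypes. Of 1361 genes at 2-fold higher in cKO LT-HSC, 74.7% had the same sign in WT and 51.1% were also 2-fold higher there. Of 1314 lower genes, 81.3% had the same sign and 51.4% were also 2-fold lower. The WT arrays differed more: the median size of a difference was 0.57 in WT and 0.39 in cKO, and 8.83% of the genes were 2-fold higher and 18.5% 2-fold lower in WT LT-HSC. Whether the genotypes differ was not tested, since single arrays leave no residual degree of freedom.

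By list, the members measured on all 4 arrays had medians of -1.15 in cKO and -1.68 in WT for mitosis, -0.83 and -1.38 for purine de novo synthesis, and -0.56 and -0.95 for housekeeping genes. Pyrimidine and deoxynucleotide synthesis had -0.36 in cKO and -1.46 in WT, one-carbon metabolism -0.54 and -1.48, and NF-kB and cytokine genes 0.45 and 1.68. Macrophage genes had the larger median in cKO (-2.09 against -0.94), B cell genes in WT (2.68 against 4.27). Immediate early genes had 0.69 and 0.77, and interferon response genes 0.65 and 0.68. Among single genes, the tubulin Tubb3 was at 4.80 in cKO (638.3 against 22.91) and 0.87 in WT and has no other probe measured on both cKO arrays. The deubiquitinase Usp40 was at 2.82 and 0.27, with 2.30 and -1.60 at its other probe. The helicase Ddx31 was at -1.49 in cKO and 0.31 in WT, but at -1.59 and -4.19 at its other probe, so the sign in WT depended on the probe.

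**Figure D5:**
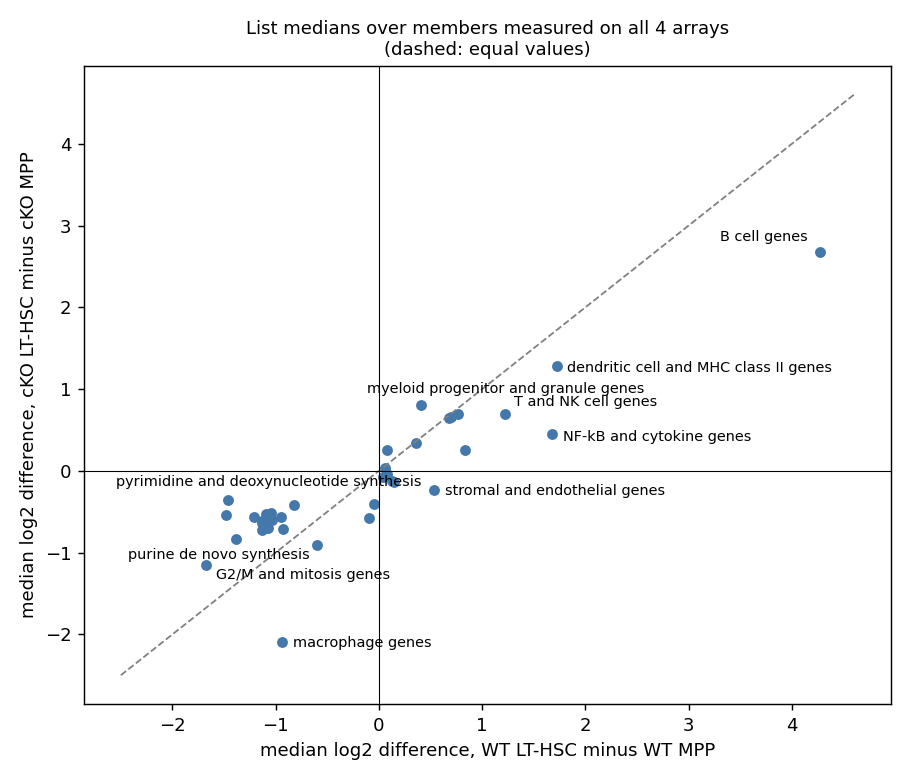
Median log2 difference of LT-HSC minus MPP of each gene list in WT (x axis) and in cKO (y axis), over members measured on all 4 arrays, with the dashed line at equal values. Mitosis genes lie at -1.68 and -1.15, macrophage genes at -0.94 and -2.09, and B cell genes at 4.27 and 2.68.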

How the data were processed

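Each of the 4 groups had 1 array. The deposited tables hold linear spot intensities. Per the file headers they were made with Agilent Feature Extraction 10.7.3.1, while the submitters' processing notes give 9.5.3. The headers state that the processed signal had a spatial surface subtracted and was detrended within the array, on array design 028005 with mm9 coordinates. The authors' deposited series table holds ratios relative to each probe's own level. Its column medians were 97.5 (cKO LT-HSC), 102.4 (cKO MPP), 91.9 (WT LT-HSC) and 107.3 (WT MPP). Its scaling rule stays unknown, its cKO differences matched the scanner values after a shift of -0.013 was removed (r = 1.0, 100.0% within 0.01), and its direction was the same. Per the file headers, spot flags are a score of 0 or 1 for well above background, saturation and outliers. Each array had 59305 spots, 137 to 151 outliers were left out, 0 were saturated, and repeated spots had an SD of 0.10 to 0.11 (log2).

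With Python 3.11.15, log2 processed signals were averaged per probe and the array's 75th percentile was subtracted. Probes well above background on at least 1 cKO array were kept (40871 of 55681). A gene was given by the probe with the highest mean over both cKO arrays. A bound divides the bright value by the dim probe's own signal or, if that is smaller, by the dimmest signal of its array that was well above background, and 160 genes had no fold. Names came from a GRCm38.p6 table that served for naming alone. By accession 26864 probes matched, 3751 by symbol, 623 by an older symbol, and 24443 kept the file's name. Named genes are the 10 largest differences in each direction, the 10 largest agreed by all probes measured on both cKO arrays and the 5 largest bounds. The sort markers, Mapk14, the purine enzymes and the 4 largest differences of each list were also named. Fos, Fosb, Egr1, Cdkn1a, Cdkn1b, Mki67 and other list members outside this rule were chosen after their values were seen. Members and lists were chosen with earlier results of these data known. Some results are not reported here. Calculations were tested on simulated data. The 10 alternatives included normexp background correction (limma 3.58.1, R 4.3.3) and quantile normalization. The latter was run in Python, separately on the cKO pair and the WT pair of arrays. No count model was used, and 1 array per group limits the precision.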

Additional observations from a re-analysis of the deposited data

Results flagged for a closer look

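Of the named genes measured on all 4 arrays, these 2 differed in opposite directions by at least 1.5-fold in cKO and in WT at the same probe, each on single arrays, and the difference between genotypes was not tested. Zbtb24, a zinc finger protein needed for centromeric DNA methylation, was at -3.22 in cKO (17.17 on the LT-HSC array against 159.6 on the MPP array) and 1.98 in WT (225.6 against 57.31). Its cKO LT-HSC signal lies close to the lowest signal well above background there, 12.1, and it has no other probe measured on both cKO arrays. Cmpk2, a mitochondrial nucleotide kinase induced by interferon, was at 1.17 in cKO (802.9 against 357.2) and -1.76 in WT (70.62 against 239.5). The other probe of Cmpk2 gave 1.32 in cKO and 0.50 in WT, so the opposite sign was seen at 1 of its 2 probes.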

How the results depend on the processing

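No paired analysis was possible because the labels give no replicate numbers and each group has 1 array, and for the same reason no array could be left out. The counts of 2258 higher and 1749 lower genes became 885 and 524 with normexp background correction, 955 and 416 with normexp and quantile normalization, 3629 and 2717 with dim probes kept, and 809 and 773 in the brighter genes. The share of higher genes was 69.7% with normexp and quantile normalization and 46.3% with median scaling, which moved the median of all genes from -0.08 to -0.18. The share of 2-fold genes with the same sign in WT, 77.9%, was 65.4% without the filter, and the correlation with WT, 0.57, was 0.44 without the filter and 0.67 in the brighter genes. The mitosis median was -0.93 with normexp and -0.91 with normexp and quantile normalization. Of 360 list medians over the 10 alternatives, 321 moved by less than the median scanner error and 39 moved further. Among these, the median of basophil, mast cell and eosinophil genes changed from -0.58 to 0.23 without the filter, and that of homing and adhesion genes from -0.04 to 0.23 with quantile normalization. Of 1751 values of named genes, 1460 moved by less than the gene's scanner error, 290 moved further and 1 was classed as reversed. The reversed value was Flt3 with the mean of its probes (0.07). Values that moved further could change sign too: Mitf, with 0.43 and -1.05 at its probes, did so when they were averaged. Dim probes limit the precision: the median scanner error was 0.30 in the dimmest of 4 brightness classes and 0.20 in the brightest.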

Other observations

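Of 15 erythroid genes measured on both arrays 4 were higher, 1 lower and 10 within 1.5-fold (median 0.26, or 0.12 with normexp), and the summed signal of the list was 162457 on the LT-HSC array and 174463 on the MPP array: the carbonic anhydrase Car1 was at 4.38 (1278 against 61.38), the membrane skeleton protein Ank1 at 3.08, the factor Gata1 at 1.54 and the erythropoietin receptor Epor at 1.13. Of 20 megakaryocyte and platelet genes 8 were higher and 3 lower (median 0.36), with Mmrn1 at 1.18 and the integrin Itga2b at 0.97. Of 9 basophil, mast cell and eosinophil genes 4 were lower and 0 higher (median -0.58), among them the eosinophil ribonucleases Ear2 (-2.21) and Ear1 (-2.16), close relatives that probes may not tell apart, and 5 more were measured on the LT-HSC array only.

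Targets of p53 split, with 4 of 19 higher and 5 lower (median -0.14). Trp53inp1 was at 2.78 (other probe 1.75), and the cell death genes Pmaip1 (457.0 against 91.0) and Bbc3 were at 2.33 and 1.07, whereas the DNA repair gene Xpc was at -1.24. Of 11 Hox genes 3 were lower and 0 higher (median -0.39, or -0.23 with normexp and quantile normalization), led by Hoxa10 (-1.51) and Hoxa4 (-1.13). Homing and adhesion genes had a median of -0.04, with the egress receptor S1pr1 at 2.41, the leukocyte integrin Itgb2 at 1.48 and the fibronectin receptor chain Itga5 at -1.72. Stromal and endothelial genes had a median of -0.17, with 3 of 17 higher and 5 lower, Vcam1 among them.

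Some of the largest differences lay outside the lists. The IgM receptor Fcmr (4.81) and the syndecan Sdc4 (4.61) were higher on the LT-HSC array, and Oxnad1 (-4.03), the glycerol phosphate dehydrogenase Gpd1 (-3.76) and the sphingosine phosphate receptor S1pr3 (-3.40) were lower. By bounds, the immunoglobulin segment Igkv4-53 was at least 123.0-fold higher, D13Ertd608e at least 63.3-fold, Upb1 at least 48.5-fold and Olfr164 at least 48.0-fold. Fcna was at least 21.8-fold lower, Paqr9 at least 13.4-fold, Fam229b at least 13.1-fold and Slco2b1 at least 12.7-fold. The Paqr9 bound rests on its brightest probe, which was higher in LT-HSC in WT (92.89 against 29.92). A further Paqr9 probe had 10.85 against 19.87 in cKO, and another was well above background on neither cKO array.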
